A study of Sus scrofa with 24 samples.

Results

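The reference hippocampus described here is that of the 6 AGA CON piglets of the study, the piglets labelled appropriate for gestational age (AGA) that were fed the control formula (CON). They were chosen by group label alone and make up 6 of the 24 sequenced piglets. The study crossed size at birth, AGA or small for gestational age (SGA), with diet, CON or a hydrolyzed fat formula (HF). All 6 were 14 days old, of a PIC Camborough dam and a PIC 359 sire, left on the farm long enough to take colostrum and then reared on a formula whose fat was triglyceride oil. Replicates 1, 2 and 3 came from litters 2, 4 and 6 of cohort 1, and replicates 4, 5 and 6 from litters 8, 10 and 12 of cohort 2. Replicates 1, 3 and 5 were male and replicates 2, 4 and 6 female. Each library was made from polyadenylated RNA of 1 dissected hippocampus, so every value is an average over all cell types of that piece of tissue.

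The hippocampus is the part of the forebrain that forms new episodic and spatial memories. Signals pass from the granule cells of the dentate gyrus to the pyramidal neurons of CA3 and CA1 and leave through the subiculum, while interneurons that release GABA hold the circuit in check. After birth its neurons refine their synapses, oligodendrocytes wrap axons in myelin, astrocytes mature, and the dentate gyrus goes on adding some new granule cells. The pig is born with a comparatively advanced brain, and its growth spurt spans birth as it does in the human infant. No size or diet effect is considered here, and no p-values are given.

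Reads on the listed genes numbered 8090747, 6204809, 7376040, 7612889, 8723343 and 7305319 in replicates 1 to 6. Levels are given as CPM, the read count relative to the scaled size of its library, and, where genes are compared with each other, as CPM per kilobase (kb) of annotated exon. In a single library 3 reads equal 0.349 to 0.451 CPM, and a gene below that cannot be told from one that is not transcribed. The Y-linked translation factor gene EIF1AY had 161, 158 and 190 reads in the 3 males and 0 in the 3 females, as the sex labels require.

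Unless marked as without replicate 2, each mean ± SD covers all 6 piglets. Replicate 2 stood apart from the other piglets, and its own values are given for many genes and lists. Its log2 CPM had a mean Pearson correlation across 14908 genes of 0.965 with the other 5 libraries, against 0.975 to 0.977 for each of those. It held the highest or the lowest value in 55.3% of these genes, and each other piglet did so in 25.8 to 35.7%. It was highest in 4032 and lowest in 4212 of them. The 1 entry without a gene identifier took 1.62% of its reads and 0.761 to 0.933% in the others. It also had the lowest read total of the 6, and the part of depth in these differences was not tested.

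Of 38882 listed genes, 14908 (38.3%) reached 1 CPM in at least 3 of the 6 piglets, and 13285 reached it in all 6. A further 9685 had at least 1 read but stayed under that level, and 14289 had none in any piglet. Among the genes that passed, 12180 were annotated as protein-coding and 411 as long non-coding RNA, while 2178 had no match in the name table. Protein-coding genes held 93.6 ± 0.20% of the reads (SD, n = 6). By mean level, 6862 genes were at 10 to 100 CPM, 2095 were at 100 to 1000 CPM and 100 above 1000 CPM.

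The RNA pool was led by glial and myelin transcripts, followed by neuronal calcium-binding proteins and the machinery every cell uses. The 10 genes with the most reads took 5.55 ± 0.37% of each library, the first 100 took 20.6 ± 0.47% and the first 1000 took 55.6 ± 1.20% (SD, n = 6). By reads, GFAP came first at 8991 ± 1236 CPM, then MBP at 7546 ± 705, MOBP at 6945 ± 1161, CLU at 6556 ± 1038 and CALM3 at 5973 ± 981. FTH1, APOE, PEA15, HPCA and CAMK2A completed the 10, with means from 4760 CPM down to 3499 CPM.

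Per kb, the ferritin heavy chain gene FTH1, which stores iron, was the highest of all at 4943, 4907, 4676, 4637, 4608 and 5285 CPM per kb in replicates 1 to 6. Its coefficient of variation across piglets was 5.35%, and replicate 2 lay inside the range of the others. Clusterin, CLU, a secreted chaperone and lipid carrier made by astrocytes, followed at 3937, 5169, 4378, 3596, 3326 and 4181 CPM per kb. Apolipoprotein E, APOE, which carries cholesterol from astrocytes to neurons, stood at 3175, 4655, 3805, 3464, 3087 and 3167 CPM per kb. In both lipid carriers replicate 2 was the highest piglet and replicate 5 the lowest.

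Myelin basic protein, MBP, which seals the inner faces of the myelin membrane, lay between CLU and APOE in mean level at 4059 ± 379 CPM per kb (SD, n = 6). Replicates 1 to 5 lay between 3821 and 3985 CPM per kb, and replicate 6 stood clear of them at 4818.

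Neuronal genes among the 20 highest per kb coded for calcium signaling and vesicle proteins. They were CALM3 for calmodulin, HPCA for the hippocampal calcium sensor hippocalcin, NRGN for neurogranin, which holds calmodulin in dendritic spines, and ATP6V0C for a proton pump subunit of vesicles. HPCA read 2661, 1177, 2206, 2205, 2831 and 2545 CPM per kb, and NRGN read 2249, 1082, 1908, 1967, 1985 and 2027. Replicate 2 was lowest in all 4 genes, below the range of the other piglets.

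Other named genes of the first 20 were GFAP (3013 ± 414 CPM per kb), GAPDH of glycolysis (2972 ± 347), CFL1 for the actin-severing protein cofilin (2898 ± 279), RPS2 (2306 ± 235) and RPL37 (1730 ± 133) of the ribosome, TMSB4X for an actin-binding thymosin (2067 ± 199), CST3 for the secreted protease inhibitor cystatin C (1855 ± 400.1), PPIA (1713 ± 169) and S100A1 (1694 ± 328). CST3, S100A1 and GFAP were highest in replicate 2, and GAPDH, CFL1 and PPIA lowest in it. Also among the 20 were 2 entries without a name, GeneID 102162130 with 314 exon bases at 3943 ± 668 and GeneID 106508283 with 100 exon bases at 3005 ± 448 CPM per kb. Both lie on unplaced sequence, and an exon length this short makes a per kb level uncertain.

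**Figure D1:**
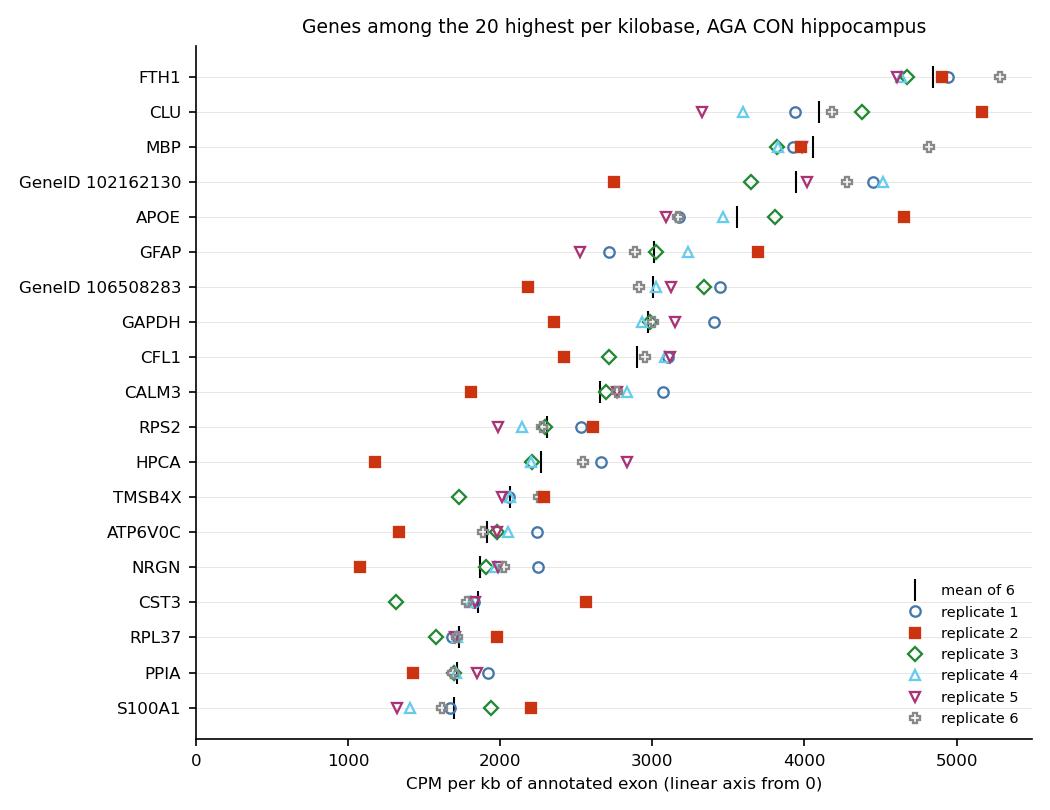
Each row is a gene from the 20 with the highest mean level per kilobase, the horizontal axis is CPM per kb of annotated exon, the points are the 6 AGA CON piglets and the black bar is their mean. FTH1 piglets sit between 4608 and 5285, while replicate 2 (filled squares) is the lowest point for HPCA, NRGN, CALM3 and ATP6V0C and the highest for CLU, APOE and GFAP.

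Genes that mark all neurons were abundant and even in 5 of the piglets. The 9 matched genes summed to 3764, 3376, 3243, 3709.9 and 3207 CPM per kb in replicates 1, 3, 4, 5 and 6, and to 1884.5 in replicate 2. The mean was 3197 ± 684 with replicate 2 and 3460 ± 261 without it (SD). UCHL1, a neuronal deubiquitinase, led at 760 ± 179 CPM per kb, then the microtubule regulator STMN2 at 678 ± 142 and the neuronal enolase ENO2 at 667 ± 134, and the heavy neurofilament gene NEFH was lowest at 40.5 ± 11. All 9 genes were lowest in replicate 2, which was lowest in 4212 of all 14908 genes. In these bulk samples fewer neurons and less RNA per neuron cannot be told apart.

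The excitatory markers summed to 3895 ± 735 CPM per kb, or 4187 ± 200 without replicate 2. NRGN at 1870 ± 403, the vesicular glutamate transporter SLC17A7 at 1092 ± 283 and the synaptic kinase CAMK2A at 760 ± 44 made up most of this sum. SLC17A7 read 1253, 527, 1110, 1177, 1290 and 1194 CPM per kb, so that replicate 2 was again below all others. CAMK2A was also lowest in replicate 2, but at 699 against 721 in replicate 4 the gap was narrow. SLA had no read in any piglet. SLC17A6, the transporter of subcortical glutamate neurons, stood at 1.87 ± 0.47 CPM per kb.

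In inhibitory neuron markers replicate 2 lay close to the other piglets. Their sum was 178, 154, 172, 159, 173 and 166 CPM per kb in replicates 1 to 6, a mean of 167 ± 8.8. The GABA-producing enzyme GAD1 was at 48.3 ± 4.9 and the vesicular GABA transporter SLC32A1 at 27.9 ± 4.8, while GAD2 was lowest at 2.02 ± 0.75. Replicate 2 was the lowest piglet, but by 0.13 on the log2 scale against the mean of the others, where the pan-neuronal sum was lower by 0.88 and the excitatory sum by 0.78.

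Genes of the main interneuron classes were all detected. The peptides NPY (146 ± 14 CPM per kb), CCK (133 ± 11) and SST (107 ± 23) were the highest of 13, and the nitric oxide synthase NOS1 was lowest at 1.24 ± 0.30. Parvalbumin, PVALB, the calcium buffer of fast-spiking basket cells, read 53.6, 44.3, 42.5, 49.9, 55.0 and 53.3 CPM per kb. VIP, of interneurons that inhibit other interneurons, was at 8.54 ± 2.36. PVALB and VIP were not chosen by the rule for named genes but after their values were seen.

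Granule cell genes were led by PENK at 133 ± 21 CPM per kb, C1QL3 at 19.7 ± 4.8 and C1QL2 at 16 ± 1.3, the first coding for enkephalin and the others for secreted synaptic organizers. PROX1, the factor that fixes granule cell fate, was at 5.51 ± 0.76 and is named although it falls outside the rule. TDO2 had no read, DSP was the lowest gene with reads at 0.495 ± 0.23, and CALB1 had 1 to 12 reads. The sum of 9 genes was 197 ± 22, with replicate 2 lowest at 164.

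Pyramidal neuron genes were present for each field. CA1 markers were led by FIBCD1 (68 ± 25 CPM per kb), POU3F1 (35.9 ± 7.6) and MPPED1 (30.1 ± 6), with MAN1A1 lowest at 1.44 ± 0.23. FIBCD1 read 67.3, 26.7, 89.5, 98.4, 58.5 and 67.5, so the 5 other piglets varied among themselves as well as from replicate 2. CA2 markers were led by the synaptic brake RGS14 (86.6 ± 8.7), then NTF3 (12.3 ± 4.1) and AMIGO2 (5.03 ± 1.30), and MAP3K15 had at most 4 reads. CA3 markers were led by CPNE4 (34.7 ± 7.4), ELAVL2 (9.43 ± 1.56) and the kainate receptor subunit GRIK4 (8.97 ± 1.21), and IYD had 1 read in all. Of the 5 subiculum genes FEZF2 (45.8 ± 12), NTS (15 ± 10.5) and FN1 (8.15 ± 3.62) were highest and SCN4B lowest (4.7 ± 1.2). FN1, the extracellular matrix protein fibronectin, is not particular to neurons, and its 15.5 in replicate 2 was over the 5.99 to 7.37 of the others.

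Most forebrain genes listed were present, and genes of other brain regions were low. LHX2, a factor of the hippocampal field, was at 118 ± 7.7 CPM per kb, NR2F1 at 67.2 ± 7.2 and EMX1 at 13.7 ± 2. ZBTB20, a factor of hippocampal pyramidal neurons, had 1 read in the 6 libraries on an unplaced entry of 2853 exon bases, which is at odds with the label. Whether this Sscrofa10.2 entry holds the main exons of ZBTB20 was not tested. Of 19 genes of striatum, midbrain, cerebellum, hindbrain and hypothalamus, 4 passed the filter and HOXA5, HOXB3, HOXC6, GBX2, SIM1 and GABRA6 had no read. The striatal receptors ADORA2A (2.74 ± 0.33) and DRD2 (1.26 ± 0.31) and the Purkinje cell gene PCP2 (1.01 ± 0.46) led that list, and its sum was 6.04 ± 0.64 CPM per kb.

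Hormone genes of the pituitary and hypothalamus were low, except for the opioid precursor POMC at 24.7 ± 2.4 CPM per kb. LHB (5.96 ± 1.70) and TRH (4.41 ± 2.41) followed, and FSHB and TSHB had no read. GH1 had 39 reads in replicate 1 and none in replicates 2, 4, 5 and 6, and was named after its values were seen. Genes of liver, muscle, lung, pancreas and kidney were represented by APOA1, ACTA1, CKM and ALB, and INS and UMOD had no read. APOA1, the lipoprotein of liver and gut, was far above the rest at 313, 491, 276, 297, 278 and 318 CPM per kb, while ACTA1 stood at 7.05 ± 1.47, CKM at 5.73 ± 1.08 and ALB at 2.35 ± 0.33. APOA1 thus accounted for nearly all of this sum, and for the high value of replicate 2 in it.

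Astrocyte genes were among the highest of all and were higher still in replicate 2. The 12 genes summed to 6011, 7246, 6299.9, 6116, 5381 and 6037 CPM per kb. GFAP, the intermediate filament, was highest, then ALDOC, a glycolytic enzyme, at 1348 ± 135, and the calcium-binding protein S100B at 858 ± 114, while the folate enzyme ALDH1L1 was lowest at 9.79 ± 2.18. The glutamate transporter SLC1A3 read 20.8, 58.1, 42.8, 41.5, 25.4 and 20.7, and the water channel AQP4 read 9.86, 37.6, 22.2, 17.8, 18 and 11.0. Both were named after their values were seen. In 11 of 12 astrocyte genes replicate 2 was the highest piglet, beside 4032 of all 14908 genes, and in ALDOC the lowest. The median over the list was 0.54 log2 units above the mean of the other piglets, beside -0.01 over all 14908 genes.

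Genes listed for each stage of the oligodendrocyte lineage were detected. Progenitor genes were led by the lineage factor OLIG1 (295 ± 23 CPM per kb), the receptor GPR17 of cells about to differentiate (117 ± 19) and OLIG2 (47.5 ± 4.6), and the proteoglycan CSPG4 was lowest (1.2 ± 0.19). Their sum was 527 ± 42, highest in replicate 2. Genes listed for newly formed cells were led by SIRT2 (1022 ± 107), BCAS1 (576 ± 120) and the myelin gene regulatory factor MYRF (58.3 ± 14.5). TCF7L2 was lowest at 3.41 ± 0.97, and the sum was 1709 ± 203, most of it SIRT2. Whether these genes are particular to that stage was not tested. MYRF read 44.8, 56.1, 43.3, 58.5, 64.2 and 82.9, highest in the same replicate 6 that was highest for MBP.

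Myelinating cells summed to 10464 ± 1352 CPM per kb over 14 entries, or 10286 ± 1431 without replicate 2, so that replicate 2 did not set this spread. The sum was 9249 and 8584 in replicates 1 and 3 and 10128 to 11758 in the other 4 piglets. MBP and MOBP (1318 ± 220 CPM per kb) were among its highest members, and a second entry of the transferrin gene TF was lowest at 1.07 ± 0.61. The myelin glycoprotein MAG was at 491, 492, 340.3, 463, 487 and 718 CPM per kb. MOG, the autoantigen on the outer myelin surface, did not follow the others, with 24.7, 4.96, 5.91, 23.9, 23.7 and 17.9 CPM per kb on an entry of 728 exon bases.

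Microglial genes were uneven between piglets, with a sum of 193, 332, 139, 249, 205 and 257 CPM per kb. The complement genes C1QA (58.4 ± 13.5) and C1QC (57 ± 20) and the signaling adaptor TYROBP (29.6 ± 10.5) were highest, and P2RY13 had at most 2 reads. Replicate 2 was highest in 9 of the 11 members that passed the filter, beside 4032 of all 14908 genes. Without it the coefficient of variation of the sum was 22.9% in place of 28.8%. CSF1R, the receptor on which microglia depend, read 2.93, 8.68, 1.29, 2.06, 1.73 and 3.22 CPM per kb.

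Vascular genes were low and again highest in replicate 2. Endothelial genes were led by the tight junction gene CLDN5 (106 ± 21 CPM per kb), the glucose transporter SLC2A1 (69.1 ± 17.5) and the lipid transporter MFSD2A of the blood-brain barrier (33.7 ± 2.8), and the receptor TEK was lowest (1.09 ± 0.26). All 10 were highest in replicate 2, beside 4032 of all 14908 genes, with sums of 329 there and 197 to 251 elsewhere. Mural cell genes were led by the contractile genes TAGLN (37.4 ± 10.1) and ACTA2 (32.1 ± 8.7) and by RGS5 (20.1 ± 3.7), with the channel subunit ABCC9 lowest (0.457 ± 0.44). Their sum was 148 in replicate 2 and 83.9 to 117 in the others. Meningeal fibroblast genes, led by OGN (22.7 ± 4.5), SLC22A6 (15.8 ± 4.5) and LUM (10 ± 1.6), summed to 91.6 in replicate 2 and to 63.1 to 70.1 elsewhere, and PRG4 had at most 4 reads.

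Genes of choroid plexus and ependyma, which line the neighboring ventricle, were low and uneven. Transthyretin, TTR, the main product of choroid plexus, read 73.6, 62.7, 21.9, 8.81, 13.8 and 8.66 CPM per kb, so that replicates 1 and 2 were 3 or more times as high as replicates 4 to 6. The folate receptor FOLR1 (22.4 ± 8.4) and the channel KCNJ13 (2.6 ± 0.57) followed, and PRLR had 1 read in all. FOLR1 did not share that order, with 19.2, 33.8, 10.4, 21.0, 19.8 and 30.1. The cilia genes FOXJ1 (23.7 ± 5.9), CFAP126 (13.3 ± 2.5) and CCDC153 (6.19 ± 1.37) represented ependyma, lowest in replicate 1, and PIFO had no read. Choroid plexus genes other than TTR, FOLR1, KCNJ13 and SLC4A5 did not pass the filter.

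Blood genes were uneven too. The adult beta-globin gene HBB read 368, 572, 438, 359, 713 and 210.1 CPM per kb, and ALAS2 of heme synthesis (3.65 ± 1.16) and HBM (2.36 ± 1.31) followed. SLC4A1 had no read. The T cell gene CD3E, named after its values were seen, stood at 3.91 CPM per kb in replicate 2, 0.934 in replicate 1 and at most 0.114 in the others.

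**Figure D2:**
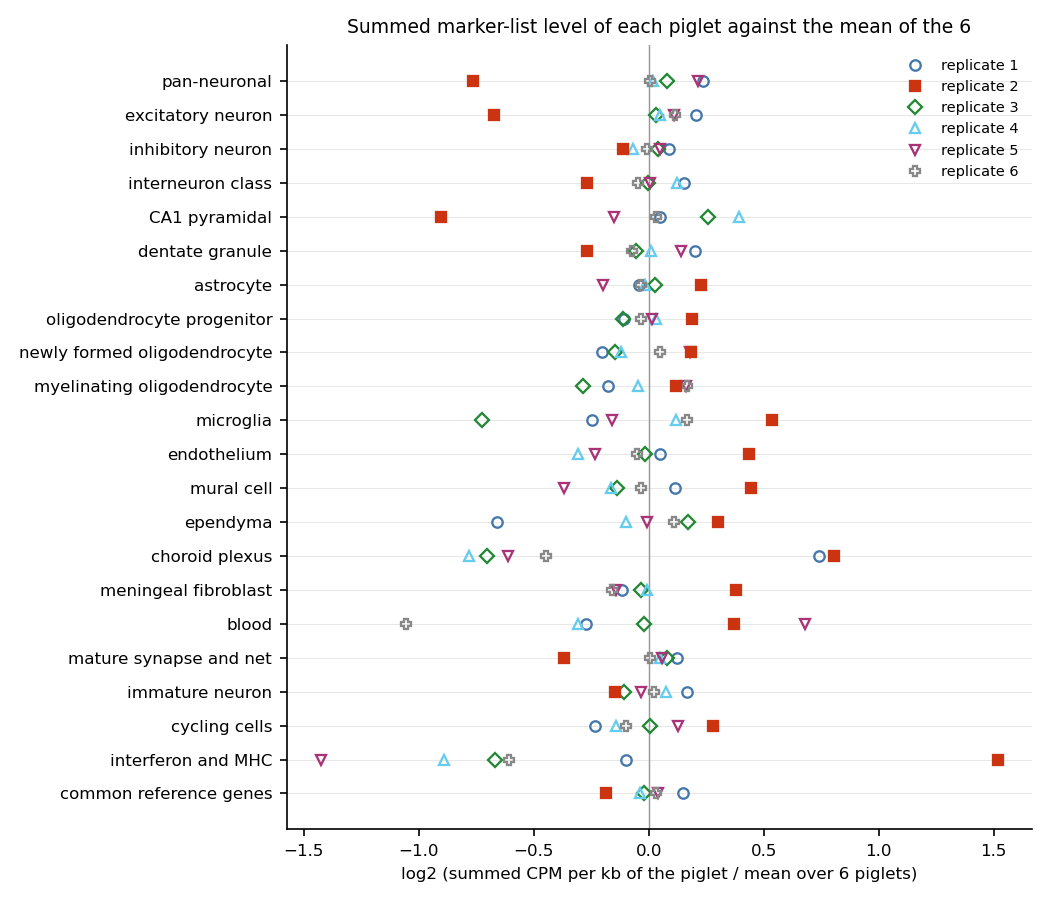
Each row is a list of marker genes, the horizontal axis is the log2 ratio of a piglet's summed CPM per kb to the mean of the 6 piglets, and each point is 1 piglet. Replicate 2 (filled squares) lies at the left for neuronal and synaptic lists and at the right for astrocyte, microglia, vascular and meningeal lists. For myelinating oligodendrocyte genes replicates 5 and 6 lie further to the right than replicate 2. Replicate 2 is furthest to the right for interferon and MHC genes, where its sum was 858 against 111 to 279.

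Interferon-induced and major histocompatibility complex (MHC) genes gave the largest coefficient of variation of the lists other than that of Y-linked genes, 93.3%. Interferons are released when a cell meets a virus and switch on a set of antiviral genes, and MHC proteins, named SLA in the pig, show peptides to T cells. The 15 genes summed to 279, 858, 188, 161, 111 and 196 CPM per kb in replicates 1 to 6. The class I genes SLA-1 (123 ± 143) and SLA-3 (61.4 ± 50.7) and the antiviral GTPase MX1 (28.5 ± 15.3) led the list, and MX2 was lowest with at most 5 reads. Replicate 2 was highest in 13 of the 14 members that passed the filter, SLA-6 being the exception, beside 4032 of all 14908 genes. The list's median in replicate 2 was 1.83 log2 units above the mean of the others. Without replicate 2 the sum was 187 ± 61.

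The high level was shared by interferon and MHC genes other than those of class I. The ubiquitin-like protein gene ISG15 read 16.7, 68.0, 10.8, 12.3, 12.0 and 13.9 CPM, and the chemokine gene CXCL10, which draws T cells, read 7.41, 38.0, 2.29, 1.58, 1.16 and 3.93 CPM. The class II gene SLA-DRA read 13.7, 37.4, 10.8, 1.19, 2.68 and 3.37 CPM. Replicate 2 was the highest piglet in all 3, by a factor of more than 2 over the next. SLA-1, SLA-3 and their relatives are near-identical copies that can be undercounted, since reads that map to several places were left out, and they differ between pigs by allele.

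The same piglet carried transcripts of antibody-producing cells. Entries annotated as immunoglobulin segments, 61 in all and looked up after their values were seen, summed to 9.97, 323, 1.21, 8.43, 0.932 and 3.79 CPM. The V segments LOC100736878 and LOC106508904 had 206 and 60.6 CPM in replicate 2 and at most 0.404 CPM elsewhere. JCHAIN, which links antibody chains, read 5.24, 19.9, 2.56, 2.77, 2.91 and 2.24 CPM. LOC396781 stood at 413 CPM in replicate 2, 33.4 in replicate 1 and 0.395 to 1.21 in the other 4.

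Set among the 24 libraries of the study on plain read totals, replicate 2 had the second highest interferon and MHC sum, at 919 CPM per kb against a median of 191. The highest, 1129.9, was that of its SGA CON littermate from litter 4. The littermates did not share the neuronal level, since the pan-neuronal sum of 2020 in replicate 2 was the lowest of 24 and that of the littermate was 3160, close to the median of 3241. Replicate 2 was also the highest of the 24 for the astrocyte and microglia sums and for the share of the entry without identifier. The 2 highest interferon and MHC sums thus came from the 2 piglets of litter 4, and the part of litter in this was not tested.

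Neural stem and progenitor genes were dominated by the radial glial fatty acid binding protein gene FABP7 at 689, 1376, 783, 869, 850.1 and 914 CPM per kb. The intermediate filament VIM (152 ± 30) and the stem cell gene HOPX (78 ± 16) followed, and EOMES, the factor of intermediate progenitors, had no read in any piglet. NES was at 1.51 ± 0.20 and PAX6 at 3.11 ± 1.15. FABP7, VIM, HOPX and SOX2 (43.5 ± 12) are also transcribed in astrocytes. Replicate 2 was highest in 9 of the 10 members that passed, as it was for astrocyte genes, beside 4032 of all 14908 genes.

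Cell division genes were low in every piglet, with a sum of 35.8 ± 4.8 CPM per kb over 18 genes. PCNA (8.12 ± 1.27), MCM5 (5.57 ± 1.35) and AURKB (4.01 ± 0.58) were highest and BUB1 lowest with at most 2 reads. The proliferation antigen MKI67 had 60 to 112 reads, or 1.18 ± 0.32 CPM per kb, and TOP2A 53 to 83 reads. These genes were detected in all 6 libraries and were far below FABP7 per kb.

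Genes of growing neurites were high, but not all of them. TUBB2B, the beta-tubulin of migrating neurons, was at 561 ± 98, TMSB10 at 547 ± 57 and STMN1 at 433 ± 40 CPM per kb, with the growth cone protein gene GAP43 next at 360.0, 171, 331, 328, 289 and 346. DCX, the standard marker of newborn neurons, had 4 to 18 reads and stood at 0.436 ± 0.22. MARCKSL1 had 2 reads in all, and the 14 genes summed to 2043 ± 168. Whether the Sscrofa10.2 entries of DCX and MARCKSL1 hold their main exons was not tested. The polysialic acid enzymes ST8SIA2 (2.2 ± 0.64) and ST8SIA4 (2.36 ± 0.44) were low but present in every piglet, and were named with NES, PAX6, SOX2, TOP2A, MKI67, GAP43 and DCX after values were seen.

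Fetal growth genes were mostly at or near 0. LIN28A, DLK1 and AFP had no read, and LIN28B, IGF2BP1, IGF2BP3 and HMGA2 had at most 2 reads in any piglet. MEG3, a maternally expressed non-coding RNA of mature neurons, was an exception at 276 ± 38 CPM per kb, followed by IGF2 (31.3 ± 15.5) and the imprinted factor PEG3 (20 ± 2.2). IGF2 read 16.1, 59.5, 30.7, 28.8, 18.8 and 33.7, again highest in replicate 2. Genes of the mature synapse and of the perineuronal net, the matrix that surrounds mature interneurons, summed to 2695 ± 306, or 2817 ± 83 without replicate 2. SYP (885 ± 191), CAMK2A and SYN1 (558 ± 119), of synaptic vesicles and the postsynapse, were highest and the net proteoglycan ACAN lowest at 0.796 ± 0.25.

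Developmental state was described with pairs of genes listed as earlier and later in brain maturation. For each piglet the log2 ratio of the later to the earlier gene per kb was taken. The order within a pair was that of the list and was not tested, and not every pair is a replacement of 1 gene by the other. GRIN1, for example, is present in every NMDA receptor. Of 16 pairs listed, 15 could be formed, and DCX with RBFOX3 was not analysed here. The later gene was the higher in all 6 piglets in 7 pairs, the earlier gene in all 6 in 5 pairs, and the piglets differed in direction in 3. The 5 include SCN1A with SCN3A, which had too few reads to be read. These counts are a description of 6 piglets and of pairs chosen for the list.

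For chloride transport the later gene was higher. SLC12A5, the KCC2 transporter that lets GABA inhibit, exceeded SLC12A2, the NKCC1 transporter that makes it excite, by 2.98, 2.14, 2.73, 2.72, 2.17 and 2.48 log2 units. At 50.8 ± 6.9 against 8.79 ± 1.67 CPM per kb, the fold was 5.81. The synaptic scaffold DLG4 exceeded the earlier DLG3 by 2.69 ± 0.11 log2 units. The node protein gene NFASC exceeded NRCAM by 3.61 ± 0.27, and NEUROD2 of settled neurons exceeded SOX11 of newborn neurons by 5.55 ± 0.23 log2 units. GFAP of astrocytes exceeded NES of progenitors by 10.96 ± 0.15.

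The beta-tubulin pair and the pair of ALDH1L1 with FABP7 pointed the other way. TUBB2B exceeded TUBB4A, the tubulin of myelinating cells and mature neurons, 3.28-fold with a log2 ratio of -1.71 ± 0.11. FABP7 exceeded ALDH1L1 by far (log2 ratio -6.54 ± 0.39). All 6 piglets showed both directions, replicate 2 included.

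Pairs of glutamate receptors, myelin and potassium channels were close or uncertain. GRIN2A and GRIN2B, the NMDA receptor subunits that exchange during synapse maturation, stood at 1.04 ± 0.18 and 0.877 ± 0.21 CPM per kb, with 17 to 32 and 31 to 75 reads. Their log2 ratio was above 0 in 5 of 6 piglets with a mean of 0.27 ± 0.24, and -1.14 when the CPM were not divided by length. KCNC1 against KCNC4 behaved alike, at 0.88 ± 0.39 per kb and -0.25 without length, with replicate 2 at 0.12 below the 0.84 to 1.20 of the rest.

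MAG against BCAS1 gave -0.22 ± 0.40, and MOG against PDGFRA gave 0.07, -2.85, -2.13, 0.24, -0.15 and -0.54. In both pairs piglets lay on either side of 0. The SCN1A and SCN3A entries had 0 to 3 and 2 to 10 reads, too few for a ratio. GRIN1 stood at 57.1 ± 16.1 CPM per kb and GRIN3A, the juvenile subunit, at 0.171 ± 0.10 with 2 to 15 reads, so that the size of that ratio is poorly determined.

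**Figure D3:**
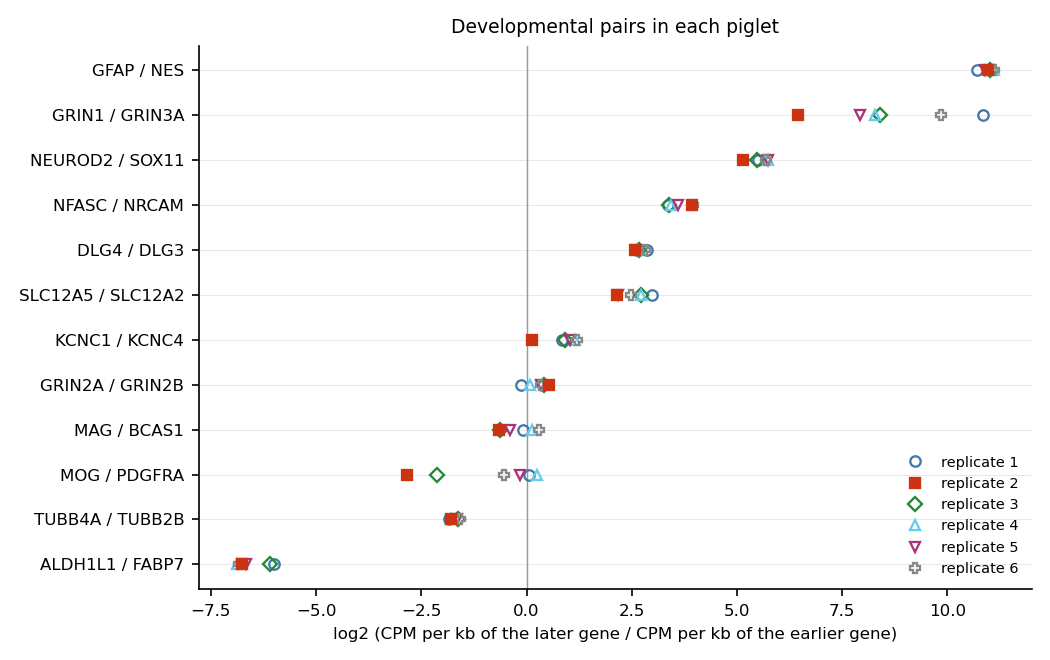
Each row is a pair of a later and an earlier gene, the horizontal axis is the log2 ratio of their CPM per kb, and each point is 1 piglet. SLC12A5 over SLC12A2 lies between 2.14 and 2.98 in all piglets, and MOG over PDGFRA is spread from -2.85 to 0.24.

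Glutamate opens 3 families of ion channels, AMPA (GRIA genes), kainate (GRIK genes) and NMDA (GRIN genes) receptors, and all 16 subunit genes passed the filter. GRIN1, the subunit present in every NMDA receptor, was highest on an entry of 774 exon bases, at 65.9, 27.4, 63.1, 63.2, 50.9 and 72.3 CPM per kb. The kainate subunits GRIK5 (26.8 ± 3.2) and GRIK2 (18.9 ± 2) came next, GRIK5 above GRIK2 in 6 of 6 piglets and GRIK2 above GRIA1 in 5 of 6. GRIA1 (15.2 ± 5.8), GRIA2 (14.9 ± 2.9) and GRIK3 (13.8 ± 1.4) formed a group whose order changed between piglets, GRIA1 exceeding GRIA2 in 2 of 6. GRIA3 (10.9 ± 1.2) and GRIK4 (8.97 ± 1.21) followed in mean level.

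Below GRIK4 the order was clear for GRIN2D (5.43 ± 0.74), whose range did not overlap that of GRIK4 or of GRIK1 (1.94 ± 0.30). GRIA4 (1.66 ± 0.14), GRIN3B (1.42 ± 0.42), GRIN2A, GRIN2B and GRIN2C (0.875 ± 0.16) overlapped with their neighbors, and GRIN3A was lowest. Per kb, GRIN1 thus exceeded the 4 GRIN2 genes together, which sum to less than 10 CPM per kb. An entry that lacks part of its gene would show such a value, and this was not tested. The sum of the 16 was 180 ± 25, or 189 ± 9 without replicate 2, in which it was 132.

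GABA-A receptors are chloride channels built from 5 subunits, and 12 of 14 genes passed the filter. GABRA5 read 59.5, 32.9, 62.5, 60.0, 63.3 and 57.4 CPM per kb, and GABRD, which joins extrasynaptic receptors on granule cells, read 35.5, 13.7, 26.7, 28.3, 30.3 and 34.7 on an entry of 550 exon bases. GABRA2 (10.1 ± 1.4) and GABRA4 (8.3 ± 1.2) came next, and GABRA2 was above GABRA4 in 6 of 6 piglets although their ranges overlapped. Apart from replicate 2 the sum of the 14 varied by only 1.93% between piglets.

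Several other subunits were low per kb. GABRA3 stood at 2.54 ± 0.94, GABRE at 1.23 ± 0.78, GABRB1 at 0.959 ± 0.19, GABRG1 at 0.657 ± 0.44, GABRG3 at 0.376 ± 0.07 and GABRB2 at 0.153 ± 0.07 CPM per kb. GABRA6, of cerebellar granule cells, had no read.

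**Figure D4:**
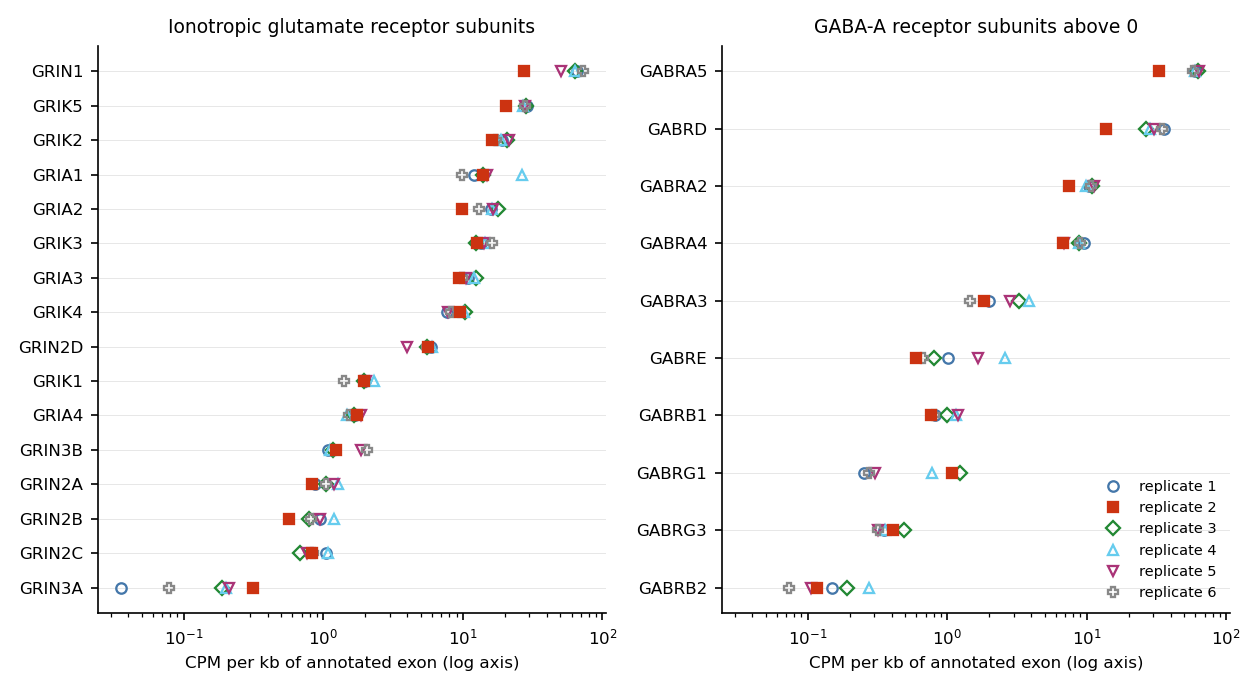
Rows are receptor subunit genes above 0 ordered by mean level, the horizontal log axis is CPM per kb of annotated exon, and each point is 1 piglet. GRIN1 and GABRA5 lead at 57.1 and 55.9 on average, and replicate 2 (filled squares) is the lowest point for GRIN1, GABRA5 and GABRD but not for GRIN2D or GRIA4.

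Of the genes that encode calmodulin, CALM3 (2657 ± 436 CPM per kb) exceeded CALM2 (540 ± 103) with no overlap. Tubulins were led by TUBA1A (971 ± 111), TUBA1B (899 ± 180.1) and TUBB2B, and TUBA8 was lowest (4.84 ± 1.23). TUBA1A exceeded TUBA1B in 4 of 6 piglets, so that their order is not determined. Both families were lowest in replicate 2, at 2192 against 3369.8 to 3709.8 CPM per kb for calmodulin and 2895 against 3632 to 4255 for tubulins.

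Immediate early genes, which neurons switch on within minutes of firing, were low. Their sum was even between piglets, with a coefficient of variation of 8.14%, but single members were less so. JUNB (39.6 ± 7.7), DUSP1 (24.6 ± 5.5) and EGR1 (10.6 ± 2.2) were highest, FOS was at 2.93 ± 0.77 and NPAS4 was lowest at 0.337 ± 0.18 CPM per kb. FOS, the usual marker of recent activity, was named after its value was seen. Stress and hypoxia genes were led by BNIP3 (145 ± 16), the chaperone HSPA5 (106 ± 5.4) and LDHA (90.7 ± 22.7), and ADM was lowest (0.71 ± 0.32). HSPA5 read 98.4, 112, 111, 108, 104.6 and 102. The sum was 383 in replicate 2 and 443 to 478 in the others, and LDHA alone was at 49.3 against 86.7 to 115.

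Spread between piglets was expressed as the biological coefficient of variation (BCV), the piglet-to-piglet variation that remains after counting error. Its median over the 14908 genes was 0.148, and 358 genes exceeded 0.5. Without replicate 2 the median was 0.112 and 193 genes exceeded 0.5, whereas leaving out any other piglet gave 0.147 to 0.153 and 275 to 319. The other groups, each with 6 libraries, had medians of 0.160 (AGA HF), 0.153 (SGA CON) and 0.133 (SGA HF). With cohort or sex as a term in the fit the median was 0.148 or 0.147. The median was 0.273 for genes under 2 CPM, 0.205 at 2 to 10, 0.125 at 10 to 100, 0.112 at 100 to 1000 and 0.144 for the 100 genes above 1000 CPM.

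The most variable named genes at 10 CPM or more fell into a few kinds. EIF1AY followed sex, and SLA-DRA, GBP1, SLA-1 and ISG12(A) belong to the interferon and MHC response, with GBP1 at 9.97, 38.5, 20.3, 2.77, 3.96 and 4.77 CPM. TTR marked choroid plexus. SNCG, a synuclein of some neurons, was at 20.9 to 36.1 CPM in 4 piglets and at 1.32 and 0.842 in replicates 4 and 6. MICALL1 was at 36.4 to 55.3 CPM in 5 piglets and at 1.54 in replicate 6, RNF181 at 17.1 to 18.3 in 4 piglets and at 0.511 and 3.36 in replicates 1 and 3. UCMA read 2.56, 35.6, 21.8, 9.49, 4.43 and 5.89 CPM.

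The least variable were ANGEL2, TMEM258, BICRAL, BORCS5, HINFP, ACTR5, TPCN2, HIC1, SEM1 and FLRT1, with BCV of 0.0575 to 0.0625. ANGEL2 read 18.7, 18.9, 19.1, 19.2, 18.6 and 18.4 CPM, a coefficient of variation of 1.72%. TMEM258, a subunit of the enzyme that attaches sugars to proteins, read 30.03, 29.9, 29.7, 30.7, 29.4 and 28.9. Replicate 2 lay inside the range of the others in both genes.

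Among 17 common reference genes, TOP2B (BCV 0.0729) and RPL4 (0.0788) varied least. TOP2B was at 123 ± 4.3 and RPL4 at 718 ± 18 CPM. SDHA (0.0982), RPL32 (0.102), RPLP0 (0.105), RPS18 (0.109), GUSB (0.110), ACTB (0.111) and PPIA (0.118) varied somewhat more. PGK1 (0.123), GAPDH (0.132), YWHAZ (0.149) and HPRT1 (0.165) varied more than these, and replicate 2 was their lowest piglet. It was also the lowest for ACTB and PPIA. Among the 17 genes replicate 2 was lowest in 7 and highest in 6, beside 4212 and 4032 of all 14908 genes. Without replicate 2 the coefficient of variation of GAPDH was 6.17% in place of 11.7% and that of HPRT1 8.47% in place of 16.7%. B2M (0.565), the light chain of MHC class I, and TFRC (0.320) had 5 to 32 and 5 to 14 reads and were too low to serve as references here. Whether the Sscrofa10.2 entry of B2M holds its main exons was not tested.

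**Figure D5:**
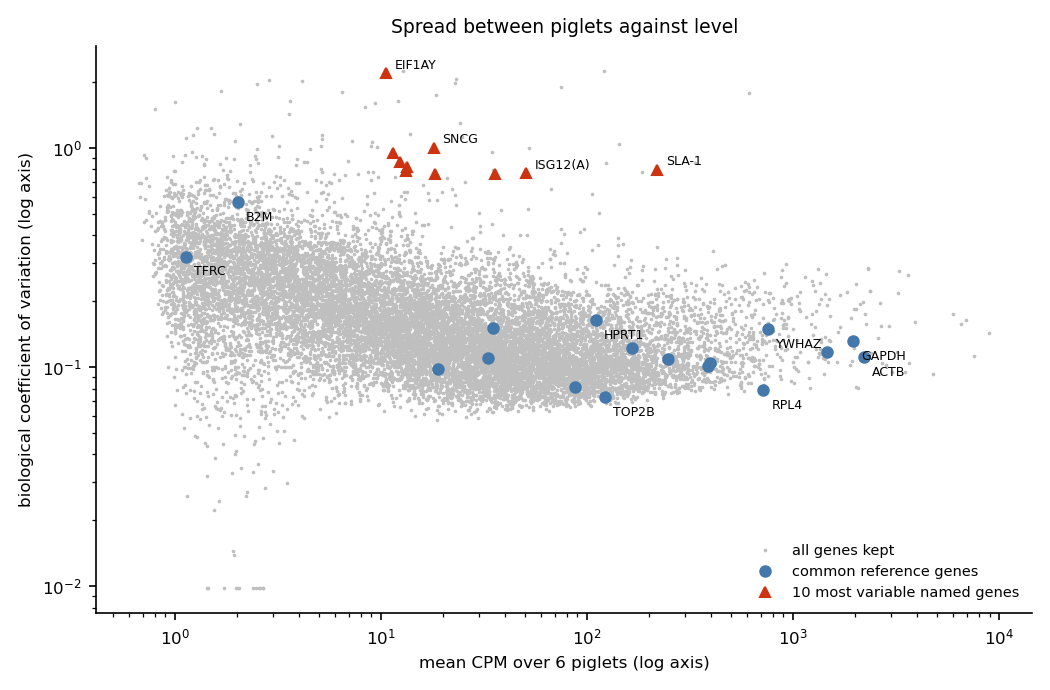
Each grey point is 1 of 14908 genes, with mean CPM over the 6 piglets on the horizontal and biological coefficient of variation on the vertical axis, both on log scales. Reference genes (blue circles) run from TOP2B at 0.0729 to B2M at 0.565, and the 10 most variable named genes (red triangles) run up to EIF1AY at 2.20.

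In 28 genes with a mean of at least 5 CPM a single piglet held over 50% of the summed CPM, and in 23 of them that piglet was replicate 2. Beside those already named these included USP18, IFIT1, IFI44, XAF1 and IFITM1 of the interferon response, and SLA-DQA1 of MHC class II. Also in this set were LOC100513601, LOC102165485 (a C region) and 5 entries known only by number, GeneID 100622791, 100736977, 102167096, 100513619 and 100736902. Replicate 1 led GeneID 106508657, 100739440, 100518605 and LOC100521600, and replicate 3 led ADIRF with 30.4 CPM, beside 24.7 in replicate 2 and at most 0.256 in the other 4.

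Some genes were present in some piglets and missing in others. In 30 genes at least 1 piglet had 10 CPM or more and at least 1 was under 3 reads, a limit set after the values were seen. Of these, 5, all on chromosome Y, were above 10 CPM in the males and under 1 CPM in the females. GeneID 102165344 on chromosome X was at 297, 209 and 221 CPM in the females and at most 0.807 in the males. GeneID 100627309 was at 24.1 to 27.0 CPM in the 3 piglets of cohort 2 and had no read in the 3 of cohort 1. Of the 30, 16 had no match in the name table. Outside this set, GeneID 102157596, an unnamed entry of 483 exon bases also picked after its values were seen, was at 4.76, 3195, 3.06, 1244, 3119 and 2.61 CPM per kb.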

How the data were processed

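Hippocampal polyadenylated RNA of 24 piglets was sequenced as stranded single-end reads, and the 6 AGA CON libraries are described here. The deposited values are whole-number counts per gene, which the authors made with Trimmomatic 0.33, STAR 2.5.2a and featureCounts of Subread 1.5.0 on Sscrofa10.2 exons, each file header giving the reverse-stranded setting, with reads that map to several places left out by default. Near-identical genes can therefore be undercounted. Each library is 1 piglet of a different litter. The 1 entry without a gene identifier, 0.761 to 1.62% of reads, was kept out of library sizes.

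Library sizes were scaled by TMM in edgeR 4.0.16 (R 4.3.3), and CPM were divided by annotated exon length in kb with pandas 2.3.3 (Python 3.11.15). A gene passed the filter at 1 CPM in at least 3 libraries. The biological coefficient of variation came from edgeR tagwise dispersions with 2 prior degrees of freedom, tested on simulated data. Alternatives were DESeq2 1.42.0 size factors and dispersions, other filters, priors and scalings, sex or cohort as a term, and leaving out each piglet. The edgeR estimated and robust priors were added after the data had been seen. No size or diet contrast was fitted and no p-value was computed. Values of the 6 piglets were screened for a piglet far from the rest with Dixon's 95% critical value.

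The gene lists, pairs and the choice of these piglets were made with earlier results of these data known. Genes were named by rule: the 20 highest per kb and 10 highest by CPM, the 3 highest and the lowest member of each list and members at 0, all pairs, reference genes and receptor subunits, the 10 most and 10 least variable symbols at 10 CPM or more, and genes with over 50% of their CPM in 1 piglet. Others are marked as chosen after their values were seen. Symbols without an entry in the name table, among them all 13 mitochondrial protein-coding genes, were not analysed here. Results for some further genes are not reported here.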

Additional observations from a re-analysis of the deposited data

Results flagged for a closer look

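Of 92 values examined in the 6 piglets (library totals, list sums, pair ratios and leading genes), 18 had 1 piglet whose gap to its nearest neighbor, divided by the whole range, exceeded Dixon's 95% critical value. Chance flags about 1 in 20 such groups, and many of these values share genes and libraries. In 17 of the 18 the piglet was replicate 2.

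Replicate 2 was far below the others in the summed CPM per kb of pan-neuronal genes (1884.5, others 3207 to 3764), excitatory neuron genes (2440.2, others 3985 to 4492), mature synapse genes (2088, others 2707 to 2935), glutamate receptor subunits (132, others 177 to 203), GABA-A receptor subunits (76.2, others 126 to 133), calmodulin genes (2192) and stress and hypoxia genes (383). It was likewise low for CALM3 (1806 CPM per kb), NRGN (1082 CPM per kb) and the log2 ratio of KCNC1 to KCNC4 (0.12). The low stress and hypoxia sum was not shared by that list as a whole. Replicate 2 was highest in 3 and lowest in 3 of its 11 genes, beside 4032 and 4212 of all 14908 genes. Replicate 2 had a list median of -0.0015 log2 units against the mean of the others.

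It was far above the others in the summed CPM per kb of interferon and MHC genes (858, others 111 to 279), neural stem and progenitor genes (1789.6), meningeal fibroblast genes (91.6) and genes of other organs (504), the last through APOA1. RPL37 at 1980.05 CPM per kb, PEA15 at 4232 CPM and the entry without identifier at 1.62% of reads were also highest in it. The remaining value was MBP in replicate 6, at 4818 CPM per kb against 3821 to 3985 in the others. The part of read depth in these values was not tested.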

How the results depend on the processing

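The order of GRIN2A and GRIN2B and of KCNC1 and KCNC4 turned when CPM were not divided by length, with mean log2 ratios of -1.14 and -0.25, as the annotated lengths of these genes differ. The other pairs kept their direction under every setting run. The number of genes with a biological coefficient of variation above 0.5, 358 as reported, was 6970 without a filter on low counts, 225 with the prior estimated by edgeR and 230 with a robust prior, and it was 193 to 319 with 1 piglet left out, the lowest without replicate 2. By DESeq2 dispersions it was 432. The lowest mean correlation of a library with the others, 0.965, was 0.971 by Spearman correlation of CPM and 0.952 over genes of at least 10 CPM. List sums stayed within 1 SD with DESeq2 size factors, plain totals or any piglet left out, and moved in 36 of 38 lists on the TPM scale, which has another total, and in 37 of 38 when the median over members replaced the sum. The share of reads without mitochondrial protein-coding genes was not run, since no such entry was matched. No paired analysis was possible because no contrast between groups was fitted. Depth limits a single library to 0.349 to 0.451 CPM, and levels per kb depend on exon lengths of Sscrofa10.2, whose completeness was not tested. The paper attributes the reduced average RNA quality number of its samples to pre-spliced RNA. The part of RNA integrity in the levels per kb was not tested either.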
